A study of Homo sapiens with 12 samples.

Results

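The genes described here are 9 human genes of the glucocorticoid response and of steroid interconversion, KLF9, HSD11B1, HSD17B2, NR3C1, FKBP5, TSC22D3, PER1, DUSP1 and SGK1, out of 18132 genes represented on the array. KLF9 and HSD11B1 were selected on their difference in signal between CANT1 and wild type MUM2B cells on replicates 2 and 3, and HSD17B2 on its difference in that line over all arrays. The other members are known parts of the same pathway. Each gene was read from the probe set annotated to its symbol alone with the highest mean over 12 arrays, and its other probe sets served as a check. The values of CANT1 against wild type MUM2B cells are therefore given below as a description with no test.

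Cortisol and related glucocorticoids act through the glucocorticoid receptor, which waits in the cytosol with HSP90 and its cochaperones and, once bound by hormone, enters the nucleus and switches target genes on or off. The hormone that reaches the receptor also depends on enzymes inside the cell, since HSD11B1 turns inactive cortisone into cortisol and HSD11B2 does the reverse, while HSD17B2 inactivates estradiol and testosterone. Several early targets of the receptor hold back other signals: FKBP5 lowers the receptor's own affinity for hormone, TSC22D3 (the protein GILZ) and DUSP1 restrain inflammatory and MAP kinase signalling, and PER1 is a repressor of the circadian clock.

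The study compared 2 human cell lines labelled as uveal melanoma, a cancer of pigment cells of the eye, on Affymetrix PrimeView expression arrays. The 4 groups of 3 arrays were OCM1 cells overexpressing the CANT1 long noncoding RNA, wild type OCM1 cells, MUM2B cells overexpressing CANT1, and wild type MUM2B cells. Replicate 1 of every group carries a growth label with puromycin selection of the CANT1 cells, and replicates 2 and 3 carry another that names DMEM with fetal bovine serum. The wild type cells of replicates 2 and 3 are labelled control, and are called wild type here. The labels name no empty vector for the wild type or control cells and no steroid treatment. Effects of selection or vector therefore cannot be told apart from those of CANT1. The labels also do not say whether replicates were separate cultures, so p-values measure the spread between these arrays, which may be technical. The CANT1 transcript itself was not followed here. In such extracts fewer cells expressing a gene and less RNA per cell cannot be told apart.

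Promoter sequence is shown for 3 members to which the results return, the mitogen phosphatase gene DUSP1, the kinase gene SGK1 and HSD11B1, the gene with the largest difference between the lines among the 9. RefSeq windows of GRCh38.p14 run from 250 bases before to 50 bases after a transcript start, and are written 5′ to 3′ along the gene's strand. Capitals mark matches to the motifs searched: in DUSP1 first the cyclic AMP response element TGACGTCA and then the E-box CACGTG bound by clock factors, and in SGK1 a single arm of the glucocorticoid response element, AGAACA.
DUSP1 (chr5:172771146-172771445, minus strand): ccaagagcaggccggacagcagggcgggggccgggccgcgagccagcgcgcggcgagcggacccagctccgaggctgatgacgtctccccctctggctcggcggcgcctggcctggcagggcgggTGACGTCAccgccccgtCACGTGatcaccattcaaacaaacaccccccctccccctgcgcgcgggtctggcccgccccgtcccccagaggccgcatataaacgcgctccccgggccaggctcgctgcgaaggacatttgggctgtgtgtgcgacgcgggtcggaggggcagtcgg
SGK1, second of 3 windows (chr6:134177812-134178111, minus strand): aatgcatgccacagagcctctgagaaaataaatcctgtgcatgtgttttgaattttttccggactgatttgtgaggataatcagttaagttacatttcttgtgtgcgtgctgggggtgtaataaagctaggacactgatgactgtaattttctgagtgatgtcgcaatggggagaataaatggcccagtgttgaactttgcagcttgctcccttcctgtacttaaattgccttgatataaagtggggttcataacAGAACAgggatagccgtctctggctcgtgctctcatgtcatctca
HSD11B1 (chr1:209685929-209686228, plus strand, no match): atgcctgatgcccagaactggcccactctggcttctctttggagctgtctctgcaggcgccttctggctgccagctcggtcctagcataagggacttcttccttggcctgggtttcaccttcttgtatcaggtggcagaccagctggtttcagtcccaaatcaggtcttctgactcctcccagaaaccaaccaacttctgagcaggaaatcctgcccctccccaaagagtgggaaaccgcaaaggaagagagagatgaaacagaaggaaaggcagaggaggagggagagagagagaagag

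Windows were found for 8 of the 9 members, 20 windows in all. None of the 20 held the full glucocorticoid response element, AGAACA and TGTTCT with any 3 bases between them, or the looser form, GNACA and TGTNC with the same gap. Over all 35116 windows the full form was in 0.00285% and the looser in 0.39%. The single arm TGTTCT, searched like all motifs on both strands and contained in the full form, was in 2 member windows, of FKBP5 and SGK1, and in 14.8% of all windows. The E-box was in 3 member windows, of FKBP5, PER1 and DUSP1, and in 7.26% of all windows. The cyclic AMP response element was in the DUSP1 window alone among the 20, starting at position -125 from the transcript start with the E-box at -108, and in 1.85% of all windows. These are matches of letters only.

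The arrays fall into the labelled sets. Medians of the deposited log2 values were 6.85 to 6.88 on the replicate 1 arrays and 6.38 to 6.45 on the others, and the 3′ minus 5′ difference of the ACTB control probe sets, which grows as RNA shortens, was 2.15 to 2.51 log2 units on replicate 1 and 0.473 to 0.911 on replicates 2 and 3. The replicate 1 array of wild type OCM1 cells stood apart: its correlations with the rest of its line averaged 0.829, where those of every other array averaged 0.936 to 0.978. The summed signal of 11 melanocytic markers was 80292 to 83117 on OCM1 CANT1 arrays, 14881 on that wild type OCM1 array and up to 81628 on the other wild type OCM1 arrays. In MUM2B cells it was 862 to 997 with CANT1 and 855 to 1233 in wild type, with the melanocyte antigen MLANA at 36.3 to 55.5. Of the 11 markers, 7 were under 100 on all MUM2B CANT1 arrays and 5 on all wild type MUM2B arrays. Over 100 on every MUM2B array were 4: MITF at 118 to 161, SOX10 at 138 to 197, PMEL at 117 to 166 and TYR at 102 to 148. SOX10 was 154 to 545 on OCM1 arrays and overlapped through that same wild type array, and OCA2 was dim in both lines. The summed signal of 7 endothelial markers was 750 to 909 with CANT1 and 682 to 983 in wild type OCM1 cells, and 3650 to 5594 with CANT1 and 3292 to 4733 in wild type MUM2B cells. The endothelial cadherin CDH5 had an OCM1 minus MUM2B difference of -4.95 ± 0.225 log2 units between wild type lines, and TIE1 of -0.811 ± 0.239. Of the 6 that entered the tests, 2 had differences above 0, so the sum does not stand for each marker. With CANT1 in MUM2B, 2 of these 6 rose on replicates 2 and 3, with 2 arrays per group, where 14.4% of all genes rose. They were CDH5, by 0.718, and the VEGF receptor KDR, by 0.424 (limma adjusted p = 0.00655 and 0.0112), with -0.31 and -0.3 on replicate 1. Their part in the MUM2B results below was not tested. Across genes, the CANT1 difference of replicate 1 and that of replicates 2 and 3 had the same sign for 42.5% of 12711 genes in OCM1 and 33.0% in MUM2B, with correlations across genes, which are not independent, of -0.218 and -0.618. The CANT1 comparisons are therefore given over 12 arrays and again for replicates 2 and 3, and the line comparisons of the 9 genes likewise, while those of the gene lists are over 12 arrays alone.

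Values below are scaled signals, the deposited values taken out of log2 and brought to a trimmed mean of 500 on each array, and differences are on the scale of log2(signal + 32), which understates changes of low signals. NR3C1 (chr5:143277931-143435512 in GRCh38.p14), the receptor itself, had signals of 878, 818 and 875 on OCM1 CANT1 arrays in the order of replicates 1, 2 and 3, and 1483, 795 and 848 on wild type OCM1 arrays. It had 1656, 1347 and 1338 in MUM2B CANT1 cells and 1876, 1269 and 1294 in wild type MUM2B cells. The receptor was thus measured well above the filter on low values, a signal of 100, on all 12 arrays, and the lines overlapped only through the wild type OCM1 array of replicate 1.

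FKBP5 (chr6:35573590-35728583), the HSP90 cochaperone that the receptor induces, had signals of 1032, 978 and 1027 in OCM1 CANT1 cells and 1092, 1080 and 1116 in wild type OCM1 cells. It had 421, 456 and 423 in MUM2B CANT1 cells and 118, 680 and 567 in wild type MUM2B cells. All OCM1 arrays lay above all MUM2B arrays, and the widest spread was that of wild type MUM2B, where replicate 1 was the lowest of the 12.

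HSD11B1 (chr1:209686179-209734929), the cortisol-producing reductase of the endoplasmic reticulum, stayed below the filter on every OCM1 array, at 40.3, 31.6 and 36.8 with CANT1 and 57.0, 46.2 and 44.5 in wild type. It had signals of 4320, 5595 and 7103 in MUM2B CANT1 cells and 8555, 1002 and 1805 in wild type MUM2B cells. The MUM2B groups overlapped over all replicates, because wild type replicate 1 was the highest array of all, and did not overlap on replicates 2 and 3. HSD11B1 was chosen on its difference on those replicates, so nothing is read from that. All 3 of its probe sets gave this order of the lines, with wild type differences of -5.02 to -4.60 log2 units.

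HSD17B2 (chr16:82035253-82098534), which oxidises estradiol to estrone, was read from a single probe set. It was below the filter on every OCM1 array, at 42.2, 26.6 and 31.7 with CANT1 and 30.7, 19.7 and 34.4 in wild type. Its signals were 333, 393 and 373 in MUM2B CANT1 cells and 192, 132 and 163 in wild type MUM2B cells. HSD17B2 was the only member whose MUM2B CANT1 arrays all lay above the wild type arrays, and it was chosen on that difference over all arrays. In MUM2B the replicates of a group lay closer together than for HSD11B1.

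KLF9 (chr9:70384604-70414657), a zinc finger transcription factor induced by glucocorticoids, had signals of 1437, 2673 and 2427 in OCM1 CANT1 cells and 3059, 2577 and 2726 in wild type OCM1 cells. It had 667, 1367 and 2194 in MUM2B CANT1 cells and 3693, 212 and 510 in wild type MUM2B cells. Wild type MUM2B held both the highest and the lowest KLF9 array of the 12. Even between its replicates 2 and 3 the gap was 1.15 log2 units, and 1 of 12711 genes had a larger one in that group, where the median gap was 0.109.

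TSC22D3 (chrX:107713221-107775988) had signals of 1488, 3029 and 2743 in OCM1 CANT1 cells and 17946, 1634 and 1716 in wild type OCM1 cells. It had 675, 1140 and 1780 in MUM2B CANT1 cells and 2627, 578 and 777 in wild type MUM2B cells. In both lines the wild type array of replicate 1 was the highest and the wild type arrays of replicates 2 and 3 lay below their CANT1 counterparts.

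DUSP1 (chr5:172768096-172771195), a phosphatase that switches off MAP kinases, had signals of 235, 418 and 406 in OCM1 CANT1 cells and 723, 300 and 277 in wild type OCM1 cells. It had 1488, 3680 and 4476 in MUM2B CANT1 cells and 4722, 3343 and 3604 in wild type MUM2B cells. The lines did not overlap, and within each line replicate 1 ran against the others.

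SGK1 (chr6:134169256-134318112), a kinase that stimulates epithelial sodium channels, had signals of 9610, 5968 and 5781 in OCM1 CANT1 cells and 646, 11559 and 10556 in wild type OCM1 cells. It had 1427, 1429 and 1221 in MUM2B CANT1 cells and 1505, 1864 and 1537 in wild type MUM2B cells. The OCM1 arrays lay above all MUM2B arrays except wild type replicate 1, the lowest of the 12. PER1 (chr17:8140472-8152404) was dim, at 62.3 to 69.8 in OCM1 CANT1 cells, 77.1 to 130 in wild type OCM1 cells, 48.7 to 66.1 in MUM2B CANT1 cells and 40.3 to 117 in wild type MUM2B cells. It passed the filter only through wild type arrays, and was not tested on replicates 2 and 3 alone.

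**Figure D1:**
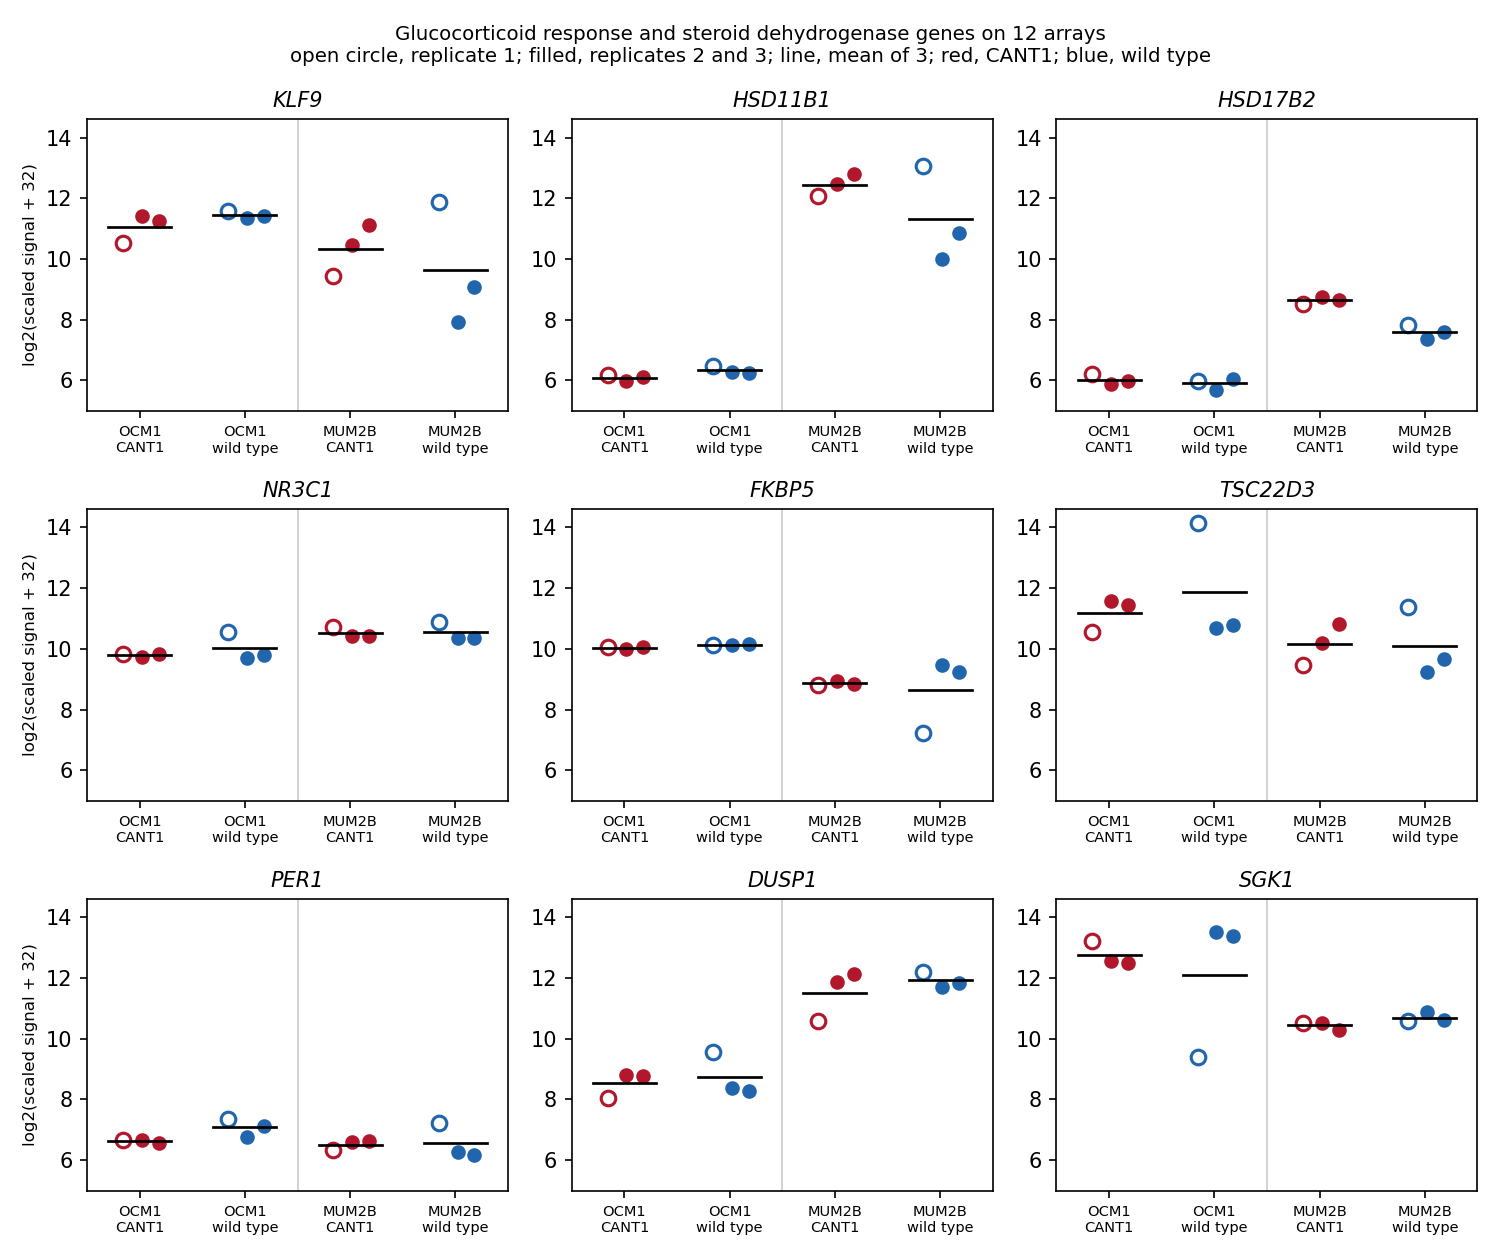
Log2(scaled signal + 32) of the 9 genes on each of 12 arrays, by group; open circles are replicate 1, filled circles replicates 2 and 3, and lines the mean of 3. HSD11B1 and HSD17B2 are near the floor in OCM1, DUSP1 is higher in MUM2B, and the open circles of wild type cells stand off for KLF9, TSC22D3 and SGK1.

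HSD11B1 and HSD17B2 were below the filter on every OCM1 array and entered the tests only through MUM2B, so they are left out of the OCM1 counts. Of the other 7 members none passed between CANT1 and wild type OCM1 cells over 12 arrays (limma, Benjamini-Hochberg adjusted p under 0.05 over all genes). Of all 12711 genes 0.102% did, 13 genes, and 7 with the replicate number as a block. PER1 is among the 7, but it passed the filter only through wild type arrays, so its call is not read. Without it the smallest limma adjusted p was 0.701, for NR3C1. An unadjusted p under 0.05 was found for 0 of the 7 and 1173 of all genes. On replicates 2 and 3 alone, 3 of the 6 members tested and counted passed, where 23.3% of 12101 genes did, and nothing particular to the members is read from that count. SGK1 fell by 0.908 ± 0.117 log2 units (SE, 2 arrays per group; limma adjusted p = 0.000365), to 5968 and 5781 in CANT1 cells against 11559 and 10556 in wild type. TSC22D3 rose by 0.772 ± 0.184 (adjusted p = 0.0115), and DUSP1 rose by 0.47 ± 0.11 (adjusted p = 0.0104). Replicate 1 ran the other way for all 3, with CANT1 minus wild type at 3.83 log2 units for SGK1, -3.56 for TSC22D3 and -1.5 for DUSP1. That wild type array is the one that stands apart in its melanocytic markers and its correlation with its line, and its part in these values was not tested. The call for TSC22D3 was lost without wild type replicate 2 (adjusted p = 0.0673), wild type replicate 3 (0.0517) or CANT1 replicate 2 (0.0806), and that for DUSP1 without wild type replicate 3 (0.0765) or CANT1 replicate 2 (0.0694). The fall of SGK1 passed without each array in turn.

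The other 5 members tested on replicates 2 and 3 of OCM1 had differences between -0.225 log2 units, for HSD11B1, and 0.06, for HSD17B2. Both of these were at signals below the filter and are not counted above. NR3C1 was at 0.042 ± 0.09 and FKBP5 at -0.127 ± 0.105, and neither passed (limma adjusted p = 0.785 and 0.423). All probe sets of SGK1 gave the fall, from -0.98 to -0.78 log2 units over 4 of them, and the 3 of TSC22D3 gave 0.42 to 0.77. The 4 of DUSP1 gave 0.17 to 0.47.

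In MUM2B, from which members were chosen, no gene of 12711 passed over 12 arrays (0.00%, limma, with 219 at an unadjusted p under 0.05), and 25.0% of 12101 passed on replicates 2 and 3. CANT1 was above wild type for 5 of 9 members over 12 arrays, where this held for 48.2% of all genes, and for 6 of 8 on replicates 2 and 3, where it held for 50.8%. KLF9, HSD11B1 and HSD17B2 are in both counts and were chosen on their difference in this line, so nothing is read from the counts. On replicates 2 and 3 the differences were 2.28 log2 units for KLF9, 2.20 for HSD11B1, 1.21 for HSD17B2, 1.05 for TSC22D3, 0.224 for DUSP1, 0.066 for NR3C1, -0.35 for SGK1 and -0.47 for FKBP5. On replicate 1 they were -2.41 for KLF9, -0.98 for HSD11B1, 0.70 for HSD17B2, -1.91 for TSC22D3, -1.65 for DUSP1, -0.18 for NR3C1, -0.08 for SGK1 and 1.59 for FKBP5. Of the 9 members, HSD17B2 and SGK1 thus kept 1 sign across the labelled sets, where 33.0% of all genes did, and HSD17B2 was chosen on its difference over all arrays. The 12-array means, 0.714 for KLF9 and 1.14 for HSD11B1, average values of opposite sign. Of the 4 KLF9 probe sets, the 2 brighter gave 2.28 and 2.02 on replicates 2 and 3 and the 2 dimmer 0.09 and 0.30.

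**Figure D2:**
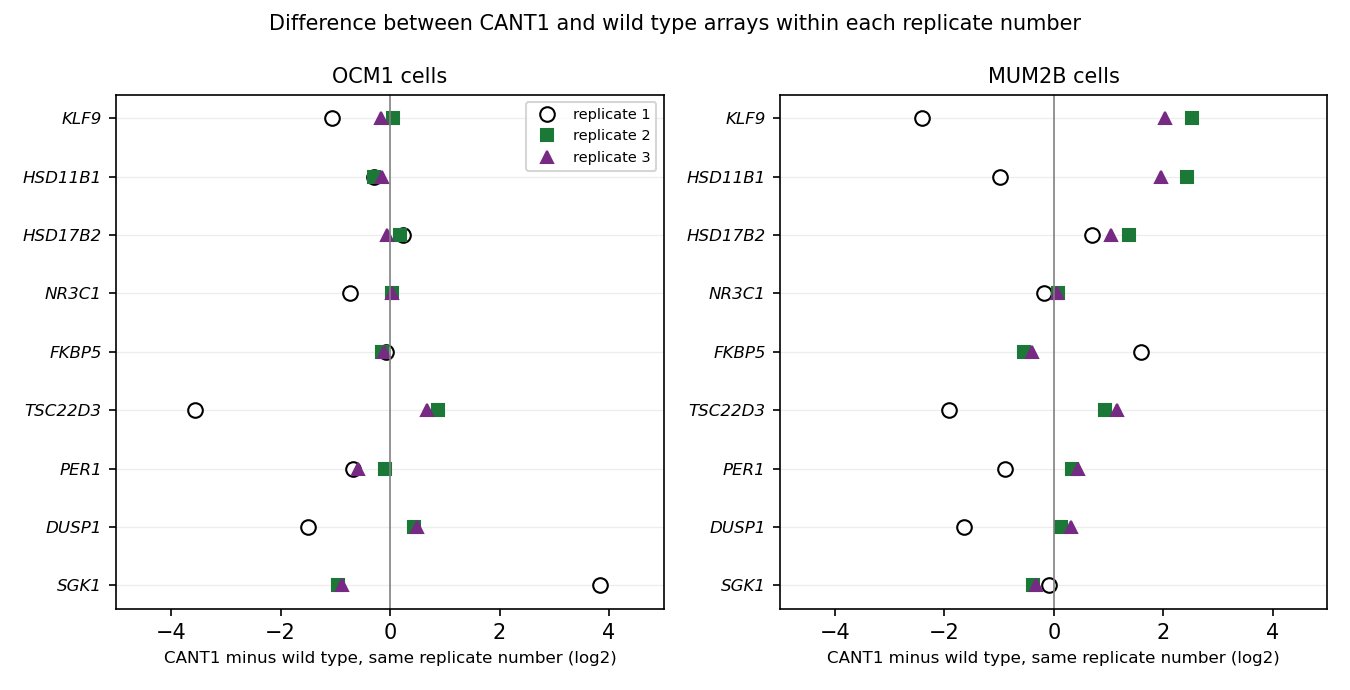
CANT1 minus wild type in log2 units, within each replicate number, for the 9 genes in OCM1 and MUM2B; circles are replicate 1, squares replicate 2 and triangles replicate 3. Replicate 1 lies on the other side of 0 from replicates 2 and 3 for KLF9, HSD11B1, NR3C1, FKBP5, TSC22D3, PER1 and DUSP1 in MUM2B and for NR3C1, TSC22D3, DUSP1 and SGK1 in OCM1.

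The lines were compared at baseline and with CANT1. The MUM2B arrays also entered the choice of members, and HSD11B1 and HSD17B2 passed the filter only through MUM2B, so these enzymes had to differ and are described with no test. HSD11B1 had an OCM1 minus MUM2B difference of -4.97 ± 0.556 log2 units (SE) between wild type cells and HSD17B2 of -1.69 ± 0.149, and on replicates 2 and 3 alone, a fit added after the data were seen, they stood at -4.155 and -1.611. KLF9 is left out of the count as well, because MUM2B arrays chose it. Of NR3C1, FKBP5, TSC22D3, PER1, DUSP1 and SGK1, 3 passed between wild type cells over 12 arrays, where 32.9% of all genes did. DUSP1 was 9.10-fold lower in OCM1, at -3.19 ± 0.457 (adjusted p = 0.000649), and NR3C1 1.44-fold lower, at -0.526 ± 0.153 (adjusted p = 0.0258). FKBP5 was 2.82-fold higher in OCM1, at 1.495 ± 0.408 (adjusted p = 0.0197), and 0.791 without wild type MUM2B replicate 1, and it lost the call with only the arrays compared (adjusted p = 0.0716). On replicates 2 and 3 alone DUSP1 stood at -3.451 ± 0.11, NR3C1 at -0.623 ± 0.09 and FKBP5 at 0.791 ± 0.105 (limma adjusted p = 1.64e-10, 7.75e-05 and 3.67e-05). The NR3C1 call was lost without any of wild type MUM2B replicate 1 (adjusted p = 0.0591), 2 (0.0604) or 3 (0.0680), or wild type OCM1 replicate 2 (0.100) or 3 (0.0892). It was also lost without a term for the labelled set (0.145) and without probe sets whose names end in _x_at or _s_at (0.0624). Still, 10 of 10 NR3C1 probe sets were lower in OCM1, at -0.67 to -0.41.

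KLF9 stood at 1.83 ± 0.83 between wild type lines over 12 arrays, given with no test because MUM2B arrays chose it. TSC22D3, at 1.77 ± 0.837, and SGK1, at 1.39 ± 0.814, did not pass there (limma adjusted p = 0.140 and 0.231). Single arrays moved KLF9, TSC22D3 and SGK1 by over 1.5 times each. KLF9 stood at 3.167 without wild type MUM2B replicate 1 and at 0.991 without wild type MUM2B replicate 2. SGK1 stood at 2.81 ± 0.202 without wild type OCM1 replicate 1 (adjusted p = 4.19e-06), and at 0.794 and 0.863 without wild type OCM1 replicate 2 or 3 (adjusted p = 0.564 and 0.546). TSC22D3 stood at 0.634 without wild type OCM1 replicate 1 (adjusted p = 0.471), and it passed with only the arrays compared (adjusted p = 0.0209). On replicates 2 and 3 alone SGK1, at 2.68 ± 0.117 (adjusted p = 2.62e-09), and TSC22D3, at 1.28 ± 0.184 (adjusted p = 7.11e-05), were higher in wild type OCM1 cells than in wild type MUM2B cells. KLF9 stood at 2.88 ± 0.298 there, given with no test because the MUM2B arrays of replicates 2 and 3 chose it.

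Between the CANT1 lines the OCM1 minus MUM2B difference was -6.36 ± 0.556 log2 units for HSD11B1 and -2.61 ± 0.149 for HSD17B2, again with no test. With KLF9 again left out, 4 of NR3C1, FKBP5, TSC22D3, PER1, DUSP1 and SGK1 passed over 12 arrays, where 37.2% of all genes did. DUSP1 stood at -2.97 ± 0.457 (limma adjusted p = 0.000862) and NR3C1 at -0.728 ± 0.153 (adjusted p = 0.00476). NR3C1 was at -0.441 and lost the call without probe sets whose names end in _x_at or _s_at (adjusted p = 0.0559). FKBP5, at 1.17 ± 0.408, and SGK1, at 2.33 ± 0.814, passed narrowly (adjusted p = 0.0482 and 0.0486) and lost the call in 17 and 14 of 27 alternatives, among them the replicate block (adjusted p = 0.0712 for each). Without OCM1 CANT1 replicate 1 they were at 0.911 (adjusted p = 0.162) and 1.64 (adjusted p = 0.181). On replicates 2 and 3 alone both passed again, FKBP5 at 1.13 ± 0.105 (adjusted p = 1.79e-06) and SGK1 at 2.13 ± 0.117 (adjusted p = 2.01e-08), as did DUSP1 at -3.204, NR3C1 at -0.647 and TSC22D3 at 1 ± 0.184 (adjusted p = 3.22e-10, 5.88e-05 and 0.000500), with KLF9 at 0.548 ± 0.298. Over 12 arrays TSC22D3 did not pass between CANT1 lines, and its difference was 0.2 to 1.822 without 1 array at a time.

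**Figure D3:**
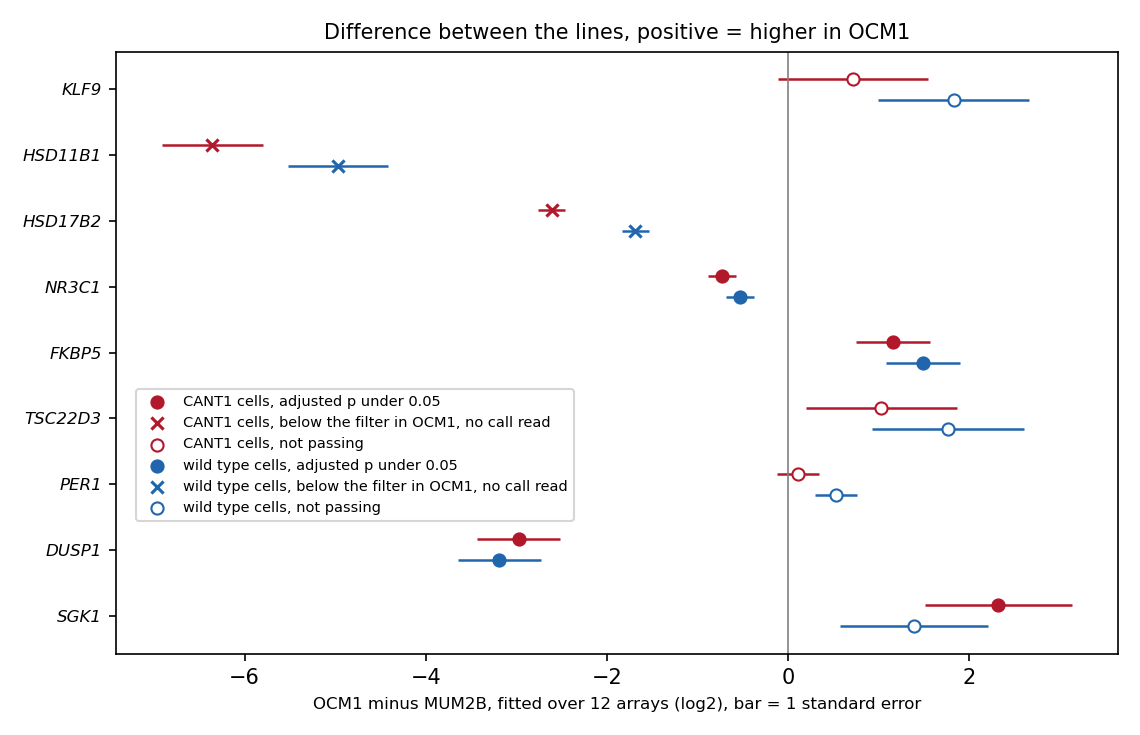
OCM1 minus MUM2B difference in log2 units for the 9 genes, fitted over 12 arrays, with bars of 1 standard error; red is CANT1 cells and blue wild type cells, filled points passed, and crosses mark HSD11B1 and HSD17B2, whose calls are not read. NR3C1 and DUSP1 lie below 0 and FKBP5 above 0 in both, all filled, while TSC22D3 and PER1 are open in both. KLF9 is drawn open in both, but no call is read for it because MUM2B arrays chose it.

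The rest of the pathway was followed through lists chosen with earlier results of these data known. Some genes are in more than 1 list, FKBP4, PER2, PER3 and ZFP36, so the counts of the lists are not separate. On 12 arrays no gene of the 10 lists passed in either line between CANT1 and wild type cells (limma), and of the 119 tested 9 in OCM1 and 3 in MUM2B had an unadjusted p under 0.05. Of the 13 chaperones and cochaperones of the receptor, 6 fell and 0 rose in OCM1 on replicates 2 and 3, where 9.60% of all genes fell and 13.7% rose. They were led by HSPA8, the constitutive HSC70, at -0.838 ± 0.089 log2 units (limma adjusted p = 9.40e-05), the HSP70 to HSP90 adaptor STIP1 at -0.778, the immunophilin FKBP4, which aids receptor transport, at -0.657, and PPID at -0.654. On replicate 1 these had differences of 0.43, 0.18, -0.88 and 0.62. The list's median was -0.27, against 0.04 over all genes, and leaving out each OCM1 array in turn left 5 falling. In MUM2B 2 of 13 fell, BAG1 at -0.521 and PPID at -0.296, with -0.15 and -0.16 on replicate 1, where 10.7% of all genes fell, and 1 fell without any of wild type replicate 2, wild type replicate 3 or CANT1 replicate 3.

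Of 8 coregulators tested, 4 rose and 0 fell in OCM1 on replicates 2 and 3, where 13.7% of all genes rose and 9.60% fell: the corepressor NRIP1 at 0.799 ± 0.114 (limma adjusted p = 0.000663), the coactivator NCOA1 at 0.56, and the acetyltransferases EP300 at 0.462 and CREBBP at 0.368. All 4 had negative differences on replicate 1, between -1.36 and -0.34, and 3 rose without each OCM1 array in turn. In MUM2B 1 rose, NRIP1 at 0.395, and 2 fell, CREBBP at -0.366 and MED1 at -0.285, where 14.4% of all genes rose and 10.7% fell, and on replicate 1 these 3 stood at -0.85, 0.21 and 0.15. In MUM2B no fall passed without any single MUM2B array of replicates 2 and 3. The rise of NRIP1 did not pass without wild type replicate 2 or CANT1 replicate 3.

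Among 23 other genes known to be induced by glucocorticoids, 10 rose and 0 fell in MUM2B on replicates 2 and 3, where 14.4% of all genes rose. They were led by the cell cycle inhibitor CDKN1C at 1.24 ± 0.171 log2 units (limma adjusted p = 0.000956), the repressor BCL6 at 1.15, the NF-κB inhibitor NFKBIA at 0.847 and CEBPD at 0.735. On replicate 1 the differences of these 4 were -1.18, -1.94, -0.89 and -1.53. Leaving out wild type replicate 2 or CANT1 replicate 3 of MUM2B left 5 rising. In OCM1 4 rose and 1 fell, with ERRFI1, an inhibitor of the EGF receptor, at 1.297 and annexin A1, ANXA1, at -0.65, where 13.7% of all genes rose and 9.60% fell, and on replicate 1 they stood at -1.64 and 3.15. In OCM1 2 rose without wild type replicate 2, CANT1 replicate 2 or CANT1 replicate 3.

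Of 6 genes tested that glucocorticoids are known to repress, 5 rose and 0 fell in MUM2B on replicates 2 and 3, where 14.4% of all genes rose, with IL1B at 2.07 ± 0.19 log2 units (limma adjusted p = 0.000157), CXCL8 at 1.68, IL1A at 0.862 and ICAM1 at 0.751. The induced and the repressed list thus both held genes that rose in the same cells. On replicate 1 these 4 stood at -1.27, -1.35, -0.68 and -1.09. In OCM1 1 rose, ICAM1 at 0.732, where 13.7% of all genes rose, and it was also higher on replicate 1, at 1.95. Between wild type lines the list's median was -2.46, against 0.06 over all genes, and 4 of 6 were lower in OCM1, where 13.9% of all genes were. Among them IL1A stood at -5.72 ± 0.266 and IL1B at -4.94 ± 0.55. Only 6 of the 13 on the array passed the filter, and a gene can pass it through MUM2B arrays alone, where it is high. Nothing is therefore read from this count, and these line differences are given with no test.

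Among 17 other steroid dehydrogenases and reductases tested, 7 rose and 2 fell in MUM2B on replicates 2 and 3, where 14.4% of all genes rose and 10.7% fell, and 3 rose without wild type replicate 2 or CANT1 replicate 3, with 1 falling without the first of these arrays and 0 without the second. The 4 largest were the aldo-keto reductases AKR1C2 at 1.22, AKR1C3 at 0.904 and AKR1C1 at 0.707, close paralogs whose probe sets may share signal, and H6PD at 0.63 ± 0.16 log2 units (limma adjusted p = 0.0155). H6PD makes the NADPH that HSD11B1 uses, and it was also higher on replicate 1, at 0.45, whereas the 3 reductases were lower there, at -0.99, -0.59 and -1.31. In OCM1 2 rose and 3 fell, with HSD17B10, a mitochondrial enzyme, at -1.04 ± 0.115 (adjusted p = 0.000128), AKR1C3 at 0.593, HSDL2 at -0.568 and HSDL1 at 0.367, where 13.7% of all genes rose and 9.60% fell. On replicate 1 these 4 stood at -0.01, 1.61, -0.57 and 0.45. In OCM1 1 rose without each OCM1 array in turn. Between wild type lines 15 of 19 passed, 9 higher and 6 lower in OCM1, where 19.1% of all genes were higher and 13.9% lower. Here too a gene can pass the filter through a single line, where it is high, so nothing is read from this count. The line differences that follow are given with no test. AKR1C2 was lower in OCM1, at -3.74 ± 0.418, with AKR1C3 at -2.77 and AKR1C1 at -2.53, while HSD17B12 was higher, at 2.19 ± 0.302. H6PD, added here after its values were seen, was lower in OCM1, at -0.66 ± 0.151.

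Clock genes, the family of PER1, gave 4 rises and 1 fall of 13 in MUM2B on replicates 2 and 3, where 14.4% of all genes rose and 10.7% fell, with BHLHE41 at 1.60, NPAS2 at 1.15, BHLHE40 at 0.98 and BMAL1 at -0.81 log2 units (limma adjusted p = 0.00171, 0.000176, 0.000817 and 0.000468). On replicate 1 these 4 stood at -0.98, 0.02, -0.8 and -0.03. In OCM1 0 rose and 3 fell, where 9.60% of all genes fell, PER3 at -0.551, NFIL3 at -0.508 and DBP at -0.468, with 2.45, -0.74 and 1.24 on replicate 1. Of 20 immediate early genes, which share growth factor control with DUSP1, 9 rose and 0 fell in MUM2B, where 14.4% of all genes rose, led by EGR1 at 2.04 ± 0.133 (adjusted p = 1.79e-05) and at -1.05 on replicate 1, and 2 rose without wild type replicate 2 or CANT1 replicate 3. In OCM1 7 rose and 3 fell, where 13.7% of all genes rose and 9.60% fell, with EGR1 at 2.35, JUN at 1.81, CCN2 at 1.25 and IER3 at 1.08. On replicate 1 of OCM1, EGR1 stood at -1.14, JUN at -4.74 and CCN2 at -0.25, and IER3 at 1.81.

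Of 11 relatives of the members, 4 rose and 1 fell in MUM2B on replicates 2 and 3, led by the phosphatase DUSP5 at 1.23 log2 units, and 2 rose and 3 fell in OCM1, led by TSC22D1 at 1.14 (limma adjusted p = 0.000276 and 0.00303). Of the 3 falls in OCM1, FKBP4 and PER3 are also counted above, among the chaperones and the clock genes. Over all genes 14.4% rose and 10.7% fell in MUM2B, and 13.7% rose and 9.60% fell in OCM1. On replicate 1 DUSP5 stood at -1.49 in MUM2B and TSC22D1 at 0.59 in OCM1. In MUM2B 1 rose without wild type replicate 2 or CANT1 replicate 3, and 0 fell without any single array of replicates 2 and 3, and in OCM1 1 rose without CANT1 replicate 2, wild type replicate 2 or CANT1 replicate 3. The mineralocorticoid receptor NR3C2, the closest relative of the glucocorticoid receptor, was the only 1 of 3 other steroid receptors to pass, rising by 0.535 in MUM2B and 0.471 in OCM1 (adjusted p = 0.00527 and 0.00927), with -0.38 and -1.6 on replicate 1. No receptor of the list rose without wild type replicate 2 in either line, or without CANT1 replicate 3 in OCM1. Of 4 genes of steroid synthesis and conjugation tested, 0 passed in either line on replicates 2 and 3 (limma), and 0 in OCM1 and 0 in MUM2B had an unadjusted p under 0.05.

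**Figure D4:**
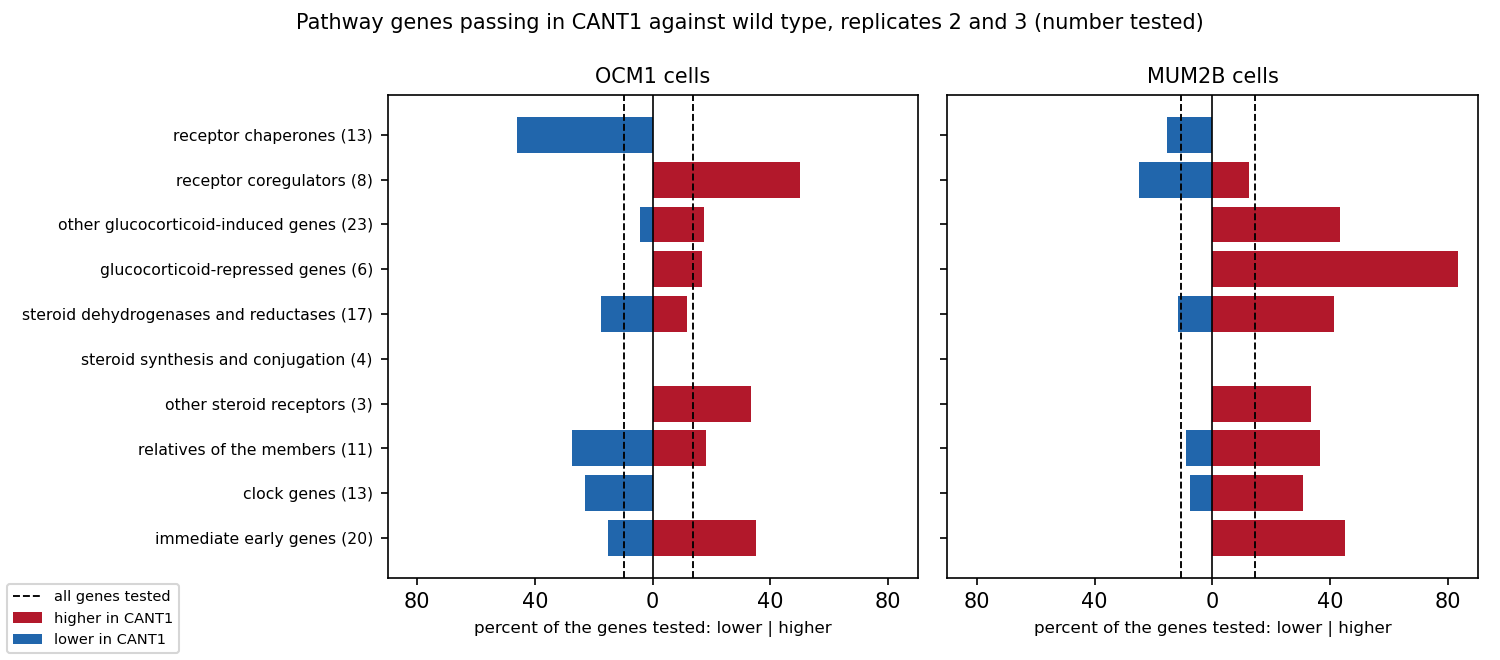
Percent of the tested genes of each list that passed on replicates 2 and 3, higher in CANT1 cells to the right in red and lower to the left in blue, for OCM1 and MUM2B, with the number tested; dashed lines give the percent of all genes. Chaperones lie on the falling side in OCM1, and the induced and repressed lists on the rising side in MUM2B.

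The genes whose pattern was most like each member's were taken by Pearson correlation over 12 arrays after subtracting the mean of the labelled set, among 12711 genes. The arrays share line and group, so high values follow from any line difference, and they are a description. For HSD11B1 they were the cytokine IL1B, the potassium channel KCNN4 and ZFP36L1, at 0.998, 0.997 and 0.996. For KLF9 they were LAMC1, PNRC1 and GCC2, at 0.981, 0.977 and 0.970. For DUSP1 they were CHIC2, GEM and LIMCH1 at 0.990, 0.990 and 0.989, and for SGK1 ZDHHC12, GCDH and RSU1 at 0.983, 0.983 and 0.982. For TSC22D3 they were DENND11, ZBTB33 and PRKAB2, at 0.991, 0.990 and 0.988. For HSD17B2 they were FRYL, CACNA1A and PDCD1LG2, at 0.989, 0.984 and 0.983. For NR3C1 they were FCHSD2, NET1 and YME1L1, at 0.991, 0.991 and 0.989, for FKBP5 TMEM177, HOMER1 and ANP32E, at 0.985, 0.983 and 0.983, and for the dim PER1 MPST, LEMD2 and OSBP, at 0.946, 0.944 and 0.931.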

How the data were processed

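Biotinylated cRNA from total RNA of 12 samples was hybridised to Affymetrix PrimeView arrays, per the labels' protocols. The submitters' processing notes name MAS5, and the deposited values of 49395 probe sets were read as log2 intensities from their range; the authors' normalization is not given in the sources used here. Each array was taken out of log2, scaled to a 2% trimmed mean of 500 and returned to log2 after adding 32. Of 18132 genes, each read from its brightest probe set naming it alone, 12711 reached a signal of 100 on 3 or more arrays and entered the tests, and 12101 did when replicates 2 and 3 were fitted alone. limma 3.58.1 in R 4.3.3 fitted 1 term per group and 1 for the labelled set over 12 arrays, and group terms alone on replicates 2 and 3, with p-values adjusted by Benjamini-Hochberg over all genes tested. Scripts were tested on simulated data.

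The members and lists were chosen with earlier results of these data known. Named were all 9 members, at most the 4 largest passing genes of each list and contrast, or the 2 largest as not passing, and the 3 most like genes of each member; list names come from general knowledge of the pathway. Deviations of same-numbered arrays from their group means correlated at 0.176, 0.144 and 0.143 in OCM1 and 0.239, 0.464 and 0.029 in MUM2B, over 0.1 for each number in OCM1 but not in MUM2B. Within replicates 2 and 3 the correlation was -0.125 in OCM1 and 0.197 in MUM2B, so the numbers were not shown to pair these arrays, and the labels tie no number to a shared culture. Gene names were updated through RefSeq for 44967 of 44988 probe sets naming 1 gene. Alternatives covered scaling, offset, filter, array weights, probe set choice, the replicate block and leaving out each array. Raw intensity files were not used here, and the number of arrays limits precision.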

Additional observations from a re-analysis of the deposited data

How the results depend on the processing

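Over 12 arrays in OCM1, 0 of the 7 members other than HSD11B1 and HSD17B2 passed between CANT1 and wild type. With array weights, which weigh less the arrays far from their group, 3 passed, where 3704 of 12711 genes did, and nothing particular to the members is read from that count. NR3C1 was then at 0.052, TSC22D3 at 0.672, DUSP1 at 0.455 (limma adjusted p = 0.0431) and SGK1 at -0.848 (0.00384). PER1, at -0.401, was among the 3, but it passed the filter only through wild type arrays, so its call is not read. Without 1 array at a time the differences were -0.64 to 0.122 for KLF9, -0.367 to 0.124 for FKBP5, -1.147 to 0.466 for TSC22D3, -0.456 to 0.417 for DUSP1 and -0.744 to 1.273 for SGK1, with the sign of TSC22D3, DUSP1 and SGK1 turned without replicate 1 of either OCM1 group. On replicates 2 and 3 the count of 3 ranged from 1 to 3 without an array, with KLF9 at -0.126 to 0.012, HSD17B2 at -0.121 to 0.241 and NR3C1 at -0.005 to 0.089, and NR3C1 at -0.011 without rescaling.

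Between wild type lines, 5 members passed, HSD11B1 and HSD17B2 included, where 4185 of 12711 genes did. With array weights 9 passed, where 8793 of 12711 genes did. On replicates 2 and 3 alone, a setting added after the data were seen, 8 of 8 passed, where 7817 of 12101 genes did. HSD11B1, HSD17B2 and KLF9 are among the members counted although no test is read for them, so nothing is read from these counts. Between CANT1 lines KLF9 was at -0.028 to 1.241 and PER1 at -0.132 to 0.227 without an array. The signs of HSD11B1, HSD17B2, NR3C1, FKBP5 and DUSP1 between the lines were the same in all 27 alternatives. In MUM2B, 5 members were above zero over 12 arrays, and 3 to 8 without an array (3 without wild type replicate 2, 8 without CANT1 replicate 1). Over all genes the OCM1 count of 13 became 3704 with array weights, 139 without wild type OCM1 replicate 1 and 1 with only the arrays compared, and the MUM2B count of 0 became 2389 with array weights and 9 without wild type MUM2B replicate 1; on replicates 2 and 3 the OCM1 count of 2815 fell to 1328 without CANT1 replicate 2 and the MUM2B count of 3028 to 1010 without CANT1 replicate 3 and 1117 without wild type replicate 2. Between wild type lines 4185 genes passed, 8793 with array weights and 7817 on replicates 2 and 3 alone; between CANT1 lines these were 4723, 8724 and 8018, and 7134 with only the arrays compared. With the replicate block, 0 members passed over 12 arrays and 3 on replicates 2 and 3 in OCM1, 5 between wild type lines and 4 between CANT1 lines, where FKBP5 and SGK1 stood at adjusted p = 0.0712 each. The block changed no other member's call. With the numbers of OCM1 CANT1 exchanged, a setting added after the data were seen, 3 members and 2995 genes passed on replicates 2 and 3 in OCM1. Signals of HSD11B1 and HSD17B2 in OCM1 lay below the filter, so their differences there are of dim signals. The median standard error over all genes was 0.183 log2 units over 12 arrays and 0.106 on replicates 2 and 3, which the number of arrays limits. For all these shifts the cause was not tested.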
